A study of Mus musculus with 2 samples.

Results

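The 9 genes described here, Isg15, Ifit1, Ifit2, Ifit3, Irf7, Oasl2, Bst2, Rsad2 and Usp18, are widely used indicators of the response to interferon. They were chosen by symbol, all 9 have a row among the 33963 genes of the count table, and each was read in all 5 populations. Mouse cells were followed by single-cell RNA-seq while primed cells returned to a naive state under AMPK activation. The populations were naive mESCs (the Rex1-GFP line in 2iL, which pairs kinase inhibitors with LIF), primed mEpiSCs (the Oct4GIP line in FGF2 and Activin A), primed cells given AICAR, which activates AMPK, together with LIF and taken at day 8 (d8) or day 16 (d16), and reverted d16 cells grown for 10 passages in 2iL (d16+10p). The labels give 129/Ola as the strain of all of them. The d8 and d16 cells had been plated on mouse embryonic fibroblast (MEF) feeders before AICAR was added. A single tagged sample from a single cell line stood for each population, all were sequenced as 1 library, and there were no replicates, so every difference below has a counting interval and no replicate check.

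Interferons are secreted proteins that cells release when they sense foreign nucleic acid. Type I interferons bind the receptor pair Ifnar1 and Ifnar2, the kinases Jak1 and Tyk2 pass the signal on, and a complex that contains Stat2 and Irf9 binds interferon-stimulated response elements (ISREs) in target promoters. Pluripotent cells are known to respond weakly to interferon, while many differentiated cells respond strongly.

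Promoter windows were available for 8 of the 9 genes (RefSeq, GRCm38.p6, from 250 bases before to 50 after the annotated start). GAAA, any 2 bases and GAAA again, which lie within the ISRE, or the reverse complement with TTTC in both places, were found in 5 of these 8 genes, Isg15, Ifit1, Ifit3, Bst2 and Rsad2. The same pattern, searched on both strands and with overlapping matches kept, was in 3.99% of all 27025 genes with a window and in 29 of 58 listed interferon-stimulated genes that are not among the 9. No match was found in these windows of Ifit2, Irf7 and Oasl2. The stretches are shown because they carry the sequence that names this gene family, 5′ to 3′ on the gene's own strand, with the fixed letters of each match in capitals. A match is a description and not a measured binding site.
Isg15: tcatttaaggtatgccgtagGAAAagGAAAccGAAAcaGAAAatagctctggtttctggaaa
Ifit1: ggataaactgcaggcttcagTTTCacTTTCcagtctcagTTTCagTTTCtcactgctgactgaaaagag
Ifit3: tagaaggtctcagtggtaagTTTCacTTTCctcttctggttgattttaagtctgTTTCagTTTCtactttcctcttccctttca
Ifit3b: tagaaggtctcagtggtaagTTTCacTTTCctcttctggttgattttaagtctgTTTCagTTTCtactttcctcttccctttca
Bst2: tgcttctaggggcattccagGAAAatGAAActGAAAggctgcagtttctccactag
Rsad2: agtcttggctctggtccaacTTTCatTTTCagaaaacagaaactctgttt
These lie upstream of the start at chr4:156200855-156200916 (minus strand, Isg15), chr19:34640765-34640833 (plus strand, Ifit1), chr19:34583353-34583436 (plus strand, Ifit3), chr19:34607749-34607832 (plus strand, Ifit3b), chr8:71537567-71537622 (minus strand, Bst2) and chr12:26456543-26456592 (minus strand, Rsad2). Isg15 held 3 overlapping matches, the first starting at base -78 from the start. Ifit3 and its neighbour Ifit3b, a near copy that is not one of the 9, had the same 84 bases. Their transcripts are alike as well: 51.2% of the 50-base windows of Ifit3 transcripts also occur in Ifit3b. Reads of Ifit3 and Ifit3b can therefore have been exchanged in the counting, and values of Ifit3 are uncertain to that extent. For the other 8 genes this share was between 0% (Ifit2, Irf7, Bst2 and Rsad2) and 7.13% (Ifit1, mostly shared with Ifit1bl2).

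The genes have these positions in GENCODE M21 (GRCm38), all as protein-coding genes. Ifit2 (34550694 to 34576419), Ifit3 (34583531 to 34588731) and Ifit1 (34640871 to 34650009) lie on the plus strand of chromosome 19, with Ifit3b between Ifit3 and Ifit1. Isg15 lies on chromosome 4 (156199424 to 156200818, minus strand), Irf7 on chromosome 7 (141262706 to 141266481, minus strand) and Oasl2 on chromosome 5 (114896936 to 114912234, plus strand). Bst2 lies on chromosome 8 (71534255 to 71537456, minus strand), Rsad2 on chromosome 12 (26442746 to 26456452, minus strand) and Usp18 on chromosome 6 (121245906 to 121270917, plus strand). Irf7 overlaps Phrf1 and Usp18 overlaps the lincRNA gene Gm44148, both on the opposite strand.

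There were 9627 cells at d8, 4315 at d16, 1826 primed, 1151 d16+10p and 801 naive cells, with a median of 10185 to 21551 reads per cell. The d16 cells were divided at 1000 CPM (reads of a gene in 1000000 reads of the cell) of Dppa5a, a naive pluripotency gene, which gave 1278 Dppa5a-high and 3037 Dppa5a-low cells. Of the d16 cells, 295 lay between 500 and 2000 CPM, near that limit. Pluripotent cells formed 4 Pou5f1-high clusters, which held 94.8% of the Dppa5a-high and 2.14% of the Dppa5a-low cells. They held 70.2% of naive, 26.3% of primed, 0.322% of d8 and 81.3% of d16+10p cells. The study took the cells of its primed sample that lacked Oct4 (Pou5f1) to be MEF feeders. In the clusters made here, fibroblast-like clusters 6 and 0 held 237 and 71 primed-tagged cells. More were in clusters mostly of d8 or d16 cells: 431 in unnamed cluster 2, 148 in epithelial-like cluster 1 and 109 in neural-like cluster 3. The study lists 500 primed cells as collected, while 1826 cells had the primed tag. The origin of these cells and the accuracy of their tags were not tested. Primed levels below are therefore those of mixed cells unless Pou5f1-high clusters are named. The tags held other cell types too: the summed level of 14 macrophage markers was 3203 CPM at d8 against 319 to 1038 in the other groups, and that of 10 fibroblast markers ranged from 628 in Dppa5a-high d16 cells to 3763 in Dppa5a-low d16 cells. Levels are in CPM, a group's reads of the gene divided by all its reads and multiplied by 1000000, with exact Poisson 95% intervals, and a summed level does not tell fewer expressing cells from less RNA per cell.

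Expression of the 9 genes was low everywhere. The highest level in a population was 32.4 CPM (Bst2 in naive cells), and 5 of the 9 (Isg15, Ifit2, Oasl2, Bst2 and Rsad2) had a mean of at least 5 CPM over the 5 populations. The summed level of the 8 genes other than Bst2 was 21.5 CPM in naive cells (interval 19.3 to 23.8), 46.1 in primed (43.7 to 48.7), 60.6 at d8 (59.5 to 61.7), 42.1 at d16 (40.5 to 43.9) and 20.6 in d16+10p cells (18.9 to 22.4). The d16 value was a mixture of 16.6 CPM in Dppa5a-high cells (14.9 to 18.4) and 57.3 in Dppa5a-low cells (54.8 to 59.9). The intervals of naive and d16+10p cells overlapped, and that of Dppa5a-high cells lay below the naive one. In Pou5f1-high clusters alone the sum was 16.7 CPM in naive (14.6 to 19.0), 16.0 in Dppa5a-high (14.3 to 17.9) and 16.7 in d16+10p cells (15.1 to 18.4), and these 3 intervals overlapped. There it was 35.7 CPM in primed cells (32.3 to 39.5) and 46.5 in 65 Dppa5a-low cells (33.6 to 62.6), both above those 3.

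**Figure D1:**
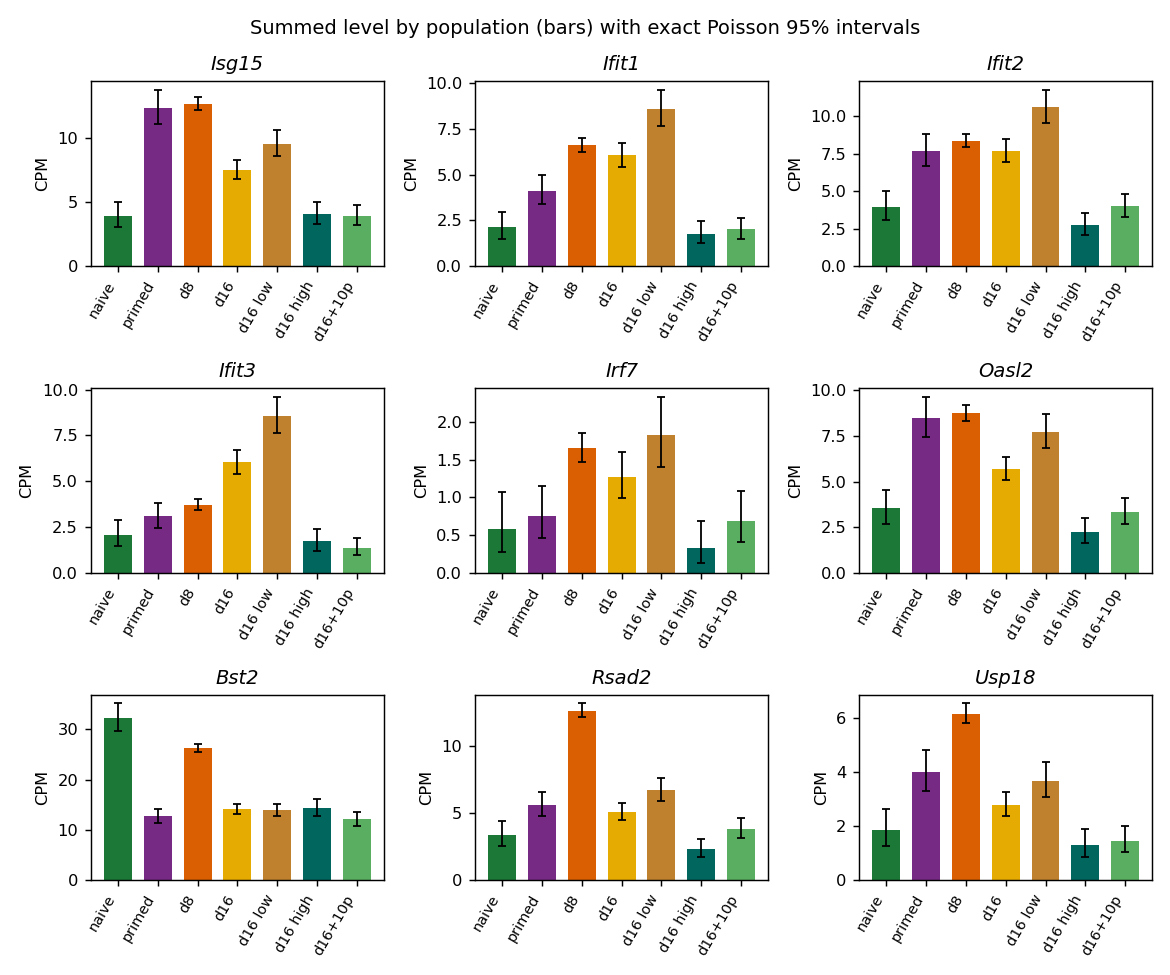
Summed level (CPM, from 0) of each of the 9 genes in the 5 populations and in the Dppa5a-low and Dppa5a-high cells of d16. Bars are levels and lines are exact Poisson 95% intervals. Isg15 stands at 12.4 and 12.7 in primed and d8 cells against 3.93 to 4.09 in naive, d16 high and d16+10p cells, while Bst2 is highest in naive cells at 32.4.

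Isg15 encodes a ubiquitin-like protein that is attached to other proteins. Its level was 3.94 CPM in naive, 12.4 in primed, 12.7 at d8, 7.54 at d16 and 3.93 in d16+10p cells, and within d16 it was 4.09 in Dppa5a-high and 9.59 in Dppa5a-low cells. Primed and d8 cells did not differ beyond counting error, nor did naive, Dppa5a-high and d16+10p cells. Among cells thinned to 5000 reads each, which makes shares comparable across depth, an Isg15 read was found in 2.18% of naive, 4.57% of primed, 5.44% of d8 and 1.29% of d16+10p cells (without thinning 5.62%, 10.5%, 12.7% and 6.43%).

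Usp18 removes Isg15 from proteins and also binds the Ifnar2 chain, where it limits signalling. It was at 1.86 CPM in naive, 4.02 in primed, 6.18 at d8, 2.79 at d16 and 1.45 in d16+10p cells. Its level was highest at d8, and the intervals of d8 (5.82 to 6.55) and primed cells (3.31 to 4.83) did not overlap.

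The Ifit proteins bind foreign or incompletely capped RNA. Ifit1 was at 2.15 CPM in naive, 4.13 in primed, 6.60 at d8, 6.05 at d16 and 2.02 in d16+10p cells. Ifit2 was at 3.94, 7.68, 8.36, 7.68 and 4.0 CPM in the same order. Ifit3 was at 2.09, 3.09, 3.72, 6.04 and 1.37 CPM. For Ifit1 and Ifit2, d8 and d16 were close, while Ifit3 was highest at d16, with an interval (5.41 to 6.72) above that of d8 (3.45 to 4.02). The near copy Ifit3b had the same peak, at 5.12 CPM in d16 and 2.23 in d8. Reads can have been exchanged between these genes, so this is no separate support for the Ifit3 peak.

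Rsad2 (viperin) makes a nucleotide that ends viral RNA chains. It was at 3.36 CPM in naive, 5.56 in primed, 12.6 at d8, 5.07 at d16 and 3.81 in d16+10p cells, so that d8 stood alone. Oasl2, a member of the oligoadenylate synthetase-like family, was at 3.54, 8.50, 8.75, 5.70 and 3.35 CPM in the same order. Irf7, the transcription factor that amplifies type I interferon production, was the least read of the 9, at 0.58 CPM in naive, 0.75 in primed, 1.65 at d8, 1.27 at d16 and 0.69 in d16+10p cells, with 10 reads in all naive cells.

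Bst2 (tetherin) holds budding viruses at the cell surface, and it took another course. Its level was 32.4 CPM in naive (29.7 to 35.2), 12.7 in primed (11.4 to 14.1), 26.3 at d8 (25.6 to 27.1), 14.1 at d16 (13.1 to 15.1) and 12.1 in d16+10p cells (10.8 to 13.5). In thinned cells a Bst2 read was found in 12.1% of naive cells, the highest share of the 5 populations, and in 5.27% of d16+10p cells. Dppa5a-high and Dppa5a-low d16 cells had nearly the same Bst2 level, 14.3 and 13.9 CPM. At d8 nearly all cells lay outside the Pou5f1-high clusters, and Bst2 reached 62.3 CPM in the macrophage-like cluster and 52.3 in 1 of the fibroblast-like clusters, both mostly of d8 cells.

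The comparison of primed with naive cells asks how the starting point of the reversion differs from its target. Values are given first for all cells of each tag, and most primed-tagged cells lay outside the Pou5f1-high clusters. Ratios are on the log2 scale after 1 CPM was added to each level, and a gene is counted at 2-fold or more. In primed cells 2 of the 9 genes were higher, Isg15 at 1.44 (interval 1.12 to 1.76) and Oasl2 at 1.07 (0.73 to 1.40), and 1 was lower, Bst2 at -1.28 (-1.47 to -1.10). Over all 12550 genes with a mean of at least 5 CPM, 3.4% were higher and 4.39% lower. The median over the 9 genes was 0.70, beside 0.09 over all genes, and 8 of 9 ratios were above 0. In the Pou5f1-high clusters alone (562 naive and 480 primed cells) these 3 genes stayed past 2-fold: Isg15 was at 13.5 CPM in primed and 3.23 in naive cells, Oasl2 at 8.22 and 3.09, and Bst2 at 9.87 and 34.5. The other 6 genes were within 2-fold there, and Ifit2 was nearest the limit at 0.98 (0.43 to 1.49). There 6 of 9 ratios were above 0, and those of Rsad2 (-0.50, -1.03 to 0.05) and Ifit3 (-0.27, -0.85 to 0.33) were below it, with intervals that held 0.

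From primed to d8, over all cells of each tag, 1 gene was past 2-fold, Rsad2 at 1.05 (0.85 to 1.26). Bst2 was just inside the limit at 1.00 (0.85 to 1.14). Over all genes 2.9% were higher and 2.93% lower. All 9 ratios were above 0, with a median of 0.52 beside -0.04 over all genes. Without the macrophage-like cluster Rsad2 was at 0.84 and Bst2 at 0.84, and no gene was past 2-fold. No comparison of pluripotent cells was made at d8, since 31 of the 9627 cells were in Pou5f1-high clusters.

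From d8 to d16, 1 gene was lower, Rsad2 at -1.16 (-1.32 to -1.01), and none was higher, while 8.15% of all genes were higher and 3.19% lower. The ratio of Ifit3 was 0.58 (0.41 to 0.73), and the other 8 ratios were below 0. Without the macrophage-like cluster the ratio of Rsad2 was -0.98.

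The widest contrast lay within d16. In Dppa5a-high cells 8 of the 9 genes were lower than in Dppa5a-low cells, where 14.5% of all genes were lower and 10.2% higher. Ifit3 was at 1.73 and 8.59 CPM, a ratio of -1.81 (-2.15 to -1.46), Ifit1 at 1.78 and 8.59 CPM (-1.79, -2.12 to -1.44), and Ifit2 at 2.74 and 10.6 CPM (-1.63, -1.95 to -1.32). Oasl2 followed at -1.42, Rsad2 at -1.22, Irf7 at -1.08, Isg15 at -1.06 and Usp18 at -1.03. Bst2 was the exception at 0.04 (-0.16 to 0.24). The median over the 9 genes was -1.22, beside -0.03 over all genes. The ratios of Isg15, Irf7, Usp18, Rsad2 and Ifit1 rested in part on few cells: without the 1% of cells of each population with the most reads of the 9 genes they were between -0.90 and -0.75, so that 3 genes (Ifit2, Ifit3 and Oasl2) stayed past 2-fold. The fibroblast marker sum differed in the same direction as the 8 genes, and its part in their difference was not tested.

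**Figure D2:**
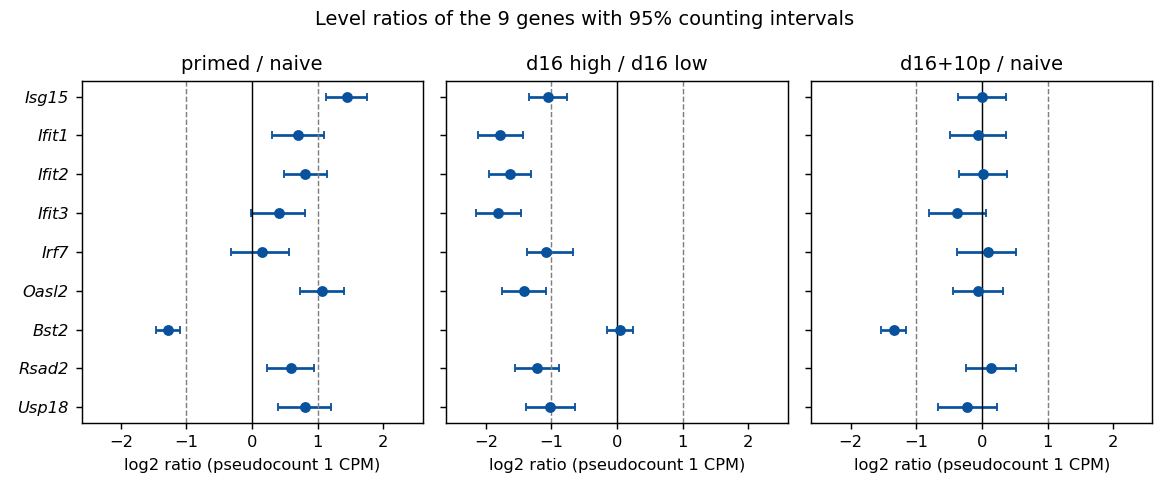
Log2 ratios (x axis, pseudocount 1 CPM) of the 9 genes (y axis) in 3 comparisons, with 95% counting intervals, and dashed lines at 2-fold. In the middle panel 8 genes lie at -1.03 or lower and Bst2 at 0.04, and in the right panel 8 genes lie between -0.38 and 0.14 and Bst2 at -1.35.

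Dppa5a-high d16 cells were also set against the primed cells from which they derive. There 4 of the 9 genes were lower (all genes: 4.67% lower, 5.42% higher), Oasl2 at -1.54 (-1.88 to -1.20), Isg15 at -1.40 (-1.69 to -1.11), Ifit2 at -1.21 (-1.54 to -0.88) and Usp18 at -1.13 (-1.50 to -0.73). In Pou5f1-high clusters alone, 2 remained past 2-fold, Isg15 at -1.55 (-1.90 to -1.20) and Oasl2 at -1.47 (-1.87 to -1.05), while Ifit2 was at -0.42 and Usp18 at -0.62.

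After 10 passages in 2iL the genes differed by less than 2-fold from Dppa5a-high d16 cells. None of the 9 was past 2-fold between d16+10p and Dppa5a-high d16 cells (all genes: 0.502% higher and 0.972% lower), with ratios between -0.23 and 0.54. The intervals of Rsad2 (0.54, 0.16 to 0.91), Ifit2 (0.42, 0.05 to 0.78), Oasl2 (0.42, 0.03 to 0.80) and Bst2 (-0.23, -0.44 to -0.01) did not hold 0. Those of the other genes did. In Pou5f1-high clusters only the interval of Bst2 (-0.35, -0.58 to -0.12) was without 0. Against naive cells 1 gene was lower, Bst2 at -1.35 (-1.54 to -1.16), where 0.494% of all genes were lower and 0.749% higher. The other 8 ratios lay between -0.38 and 0.14, each with an interval that held 0. In Pou5f1-high clusters the ratio of Ifit2 was 0.83 (0.35 to 1.28), with 3.44 CPM in d16+10p and 1.51 in naive cells, an interval without 0. There Bst2 was at 34.5 CPM in naive, 14.3 in Dppa5a-high d16 and 11.0 in d16+10p cells, so that the reverted cells were nearer to the primed level of 9.87 than to the naive one. The naive cells are a different line from the others, and line and state cannot be told apart. The comparisons that include naive, primed or Dppa5a-high cells share those cells.

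Most cells had no read of these genes, and few had several. After thinning to 5000 reads, at least 2 of the 9 genes were found in 1.64% of naive (exact binomial interval 0.85 to 2.84), 3.02% of primed (2.23 to 4.0), 4.35% of d8 (3.94 to 4.80), 2.61% of d16 (2.12 to 3.18) and 0.647% of d16+10p cells (0.260 to 1.33). Within d16 the share was 0.565% in Dppa5a-high (0.228 to 1.16) and 3.64% in Dppa5a-low cells (2.94 to 4.45). Cells with under 5000 reads were left out, 755 of them from d8, 604 from d16, 271 from primed, 69 from d16+10p and 68 from naive cells. The unthinned shares were 12.4%, 11.3%, 19.5%, 7.60% and 9.04% from naive to d16+10p, and 5.48% and 8.50% in Dppa5a-high and Dppa5a-low cells.

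Reads of at least 6 of the 9 genes were found in 49 of 17720 cells. Of these, 33 were d8, 13 d16, 2 primed and 1 d16+10p cells. None was among the 801 naive cells, the 1278 Dppa5a-high cells or the 3285 cells of Pou5f1-high clusters, which allows a share of up to 0.375%, 0.235% and 0.0913%. The Pou5f1-high cells were the deeper ones, with a median of 19012 reads against 12974 in the other clusters. All 13 of the d16 cells were Dppa5a-low.

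Some of these cells had many reads. A d8 cell of fibroblast-like cluster 0 had 280 reads of the 9 genes among 14612, with 83 of Rsad2, 68 of Ifit1 and 55 of Ifit2, and a smooth muscle-like d8 cell had 119 reads of Ifit1. Reads of all 9 genes were found in 4 cells, 2 at d8 and 2 at d16. The 33 d8 cells, 0.343% of that population, carried 26.2% of its Ifit1 reads, 25.7% of its Ifit3 reads and 9.08% of its Rsad2 reads, but 2.92% of its Bst2 reads. The 13 d16 cells carried 21.6% of the Ifit1 and 14.5% of the Isg15 reads of d16. Without them Ifit1 was at 4.90 CPM in d8 and 4.77 in d16.

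**Figure D3:**
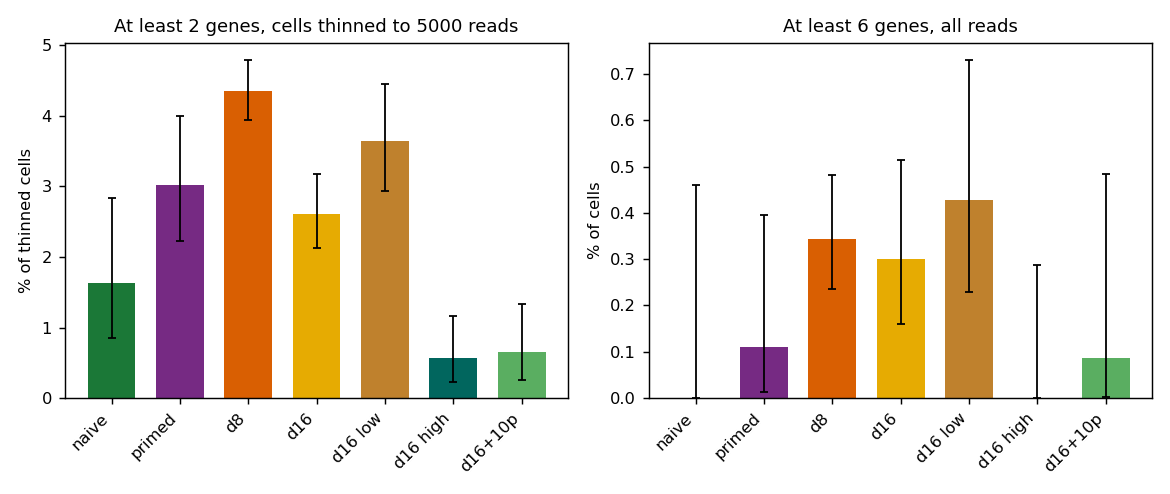
Share of cells with reads of at least 2 of the 9 genes after thinning to 5000 reads (left) and of at least 6 without thinning (right), in percent from 0, by population, with exact binomial 95% intervals. The left panel runs from 0.565% in d16 high to 4.35% in d8, and the right panel is at 0 in naive and d16 high cells.

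The cells were clustered with the 9 genes and the other listed interferon genes left out, so that the clusters did not use them. The macrophage-like cluster 8 (leading genes Lyz1 and Lyz2) and the unnamed cluster 10 (T, Shh) had the highest shares of thinned cells with at least 2 of the genes, 9.28% (7.39 to 11.5) and 8.48% (6.52 to 10.8), and the other clusters of at least 100 cells lay between 0.558% and 5.53%. The genes that made up these shares differed. In cluster 8, Bst2 was at 62.3 CPM, Rsad2 at 32.8 and Isg15 at 16.6. In cluster 10, Oasl2 was at 27.7 CPM, Isg15 at 26.1, Ifit2 at 24.7, Ifit1 at 11.6 and Ifit3 at 10.7, while Bst2 was at 6.79.

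Cluster 10 held 739 cells, 611 of them from d8, and was led by T and Shh, genes known from the axial mesoderm. In the cluster 149 cells had an Isg15 read, and no cell held more than 7 of its 277 reads. The most in a cell was 10 of 294 reads for Oasl2 and 25 of 262 for Ifit2. The 70 primed-tagged cells in this cluster had Isg15 at 20.1 CPM and Oasl2 at 31.4, where its d8 cells had 27.0 and 28.2, with intervals that overlapped. Ifit2 was at 41.4 CPM in those primed-tagged cells (28.5 to 58.2) and at 22.7 in the d8 cells (19.7 to 26.0), which did not overlap. Rsad2 was at 15.1 (7.78 to 26.3, 12 reads) and 7.53 CPM (5.83 to 9.56), with intervals that overlapped. Of 36 other listed interferon-stimulated genes with a mean of at least 5 CPM, 12 had their highest level among the clusters of at least 100 cells in cluster 10 (33.3%, beside 4.04% of all 12550 genes). Among these were Gbp2 at 63.0 CPM, Herc6 at 38.9 and Rtp4 at 26.7, which were chosen after their values were seen. The median ratio of the 36 genes in cluster 10 to the median cluster was 0.20 on the log2 scale, beside 0 over all genes.

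The neural-like cluster 13 (Nhlh2, Dcx) had the highest Isg15 level, 26.6 CPM, and the highest Ifit1 level, 13.6 CPM, but both came from few cells. Among 49 Isg15 reads, 23 were in 1 cell. Without 3 cells of its 270, Isg15 was at 7.76 CPM and Ifit1 at 1.66.

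Single genes had places of their own. Rsad2 was at 23.5 CPM in the epithelial-like cluster 1 (Krt8, Krt18), second to the macrophage-like one. Ifit2 was at 18.2 CPM and Oasl2 at 12.9 in the fibroblast-like cluster 6 (Col3a1), which held 736 d16 and 237 primed-tagged cells. Usp18 was highest, at 13.9 CPM, in the unnamed cluster 14 (Krt15). In the fibroblast-like cluster 0 (Lox, Ccl2) Bst2 was at 52.3 CPM.

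In the 4 Pou5f1-high clusters, Ifit1 ranged from 1.79 to 3.09 CPM, Ifit2 from 1.36 to 3.96, Ifit3 from 1.44 to 1.82, Rsad2 from 1.89 to 3.63 and Usp18 from 1.01 to 2.61. Of the 11 other clusters, the interval lay above all 4 of these in 8 for Ifit2, in 7 for Ifit1 and Usp18, in 6 for Ifit3 and in 5 for Rsad2. For Isg15 and Oasl2 this held in 2 of 11 clusters, because the primed Pou5f1-high cluster 12 was at 14.0 and 8.59 CPM. Bst2 was at 34.3 CPM in the naive Pou5f1-high cluster 11. Macrophage markers, which pluripotent cells should lack, reached 0.759% (Lyz2) to 3.70% (Csf1r) of their macrophage-like level in Pou5f1-high cells. The source of such reads, and their part in levels of 1 to 4 CPM, was not tested. After thinning, a read was found in 53.7% of Pou5f1-high cells for Lyz2, 6.86% for Tyrobp, 2.12% for C1qb and 1.71% for Csf1r. In macrophage-like cells these shares were 99.9%, 92.4%, 52.3% and 34.0%.

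**Figure D4:**
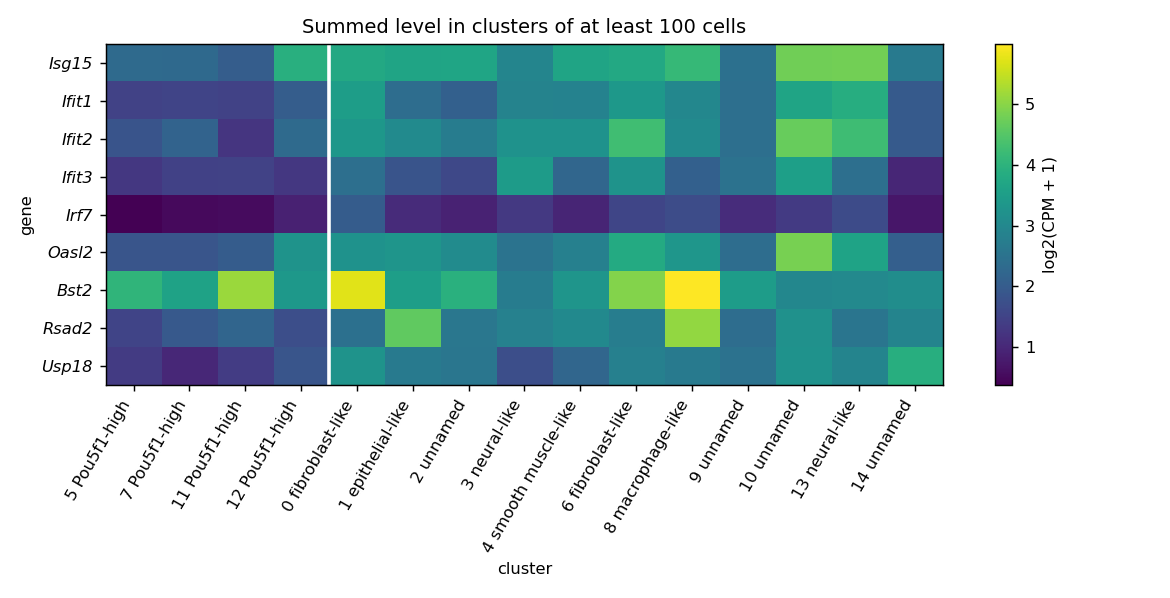
Level of the 9 genes (rows) in the 15 clusters of at least 100 cells (columns), as log2(CPM + 1) in colour, with the 4 Pou5f1-high clusters left of the white line. Cluster 10 is bright for Isg15, Ifit2 and Oasl2, clusters 0 and 8 for Bst2, and clusters 1 and 8 for Rsad2.

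Across the 15 clusters of at least 100 cells, each gene was correlated with the mean standardized level of the other 8, as a description over clusters that share 1 library. Pearson's r was 0.91 for Ifit1, 0.88 for Irf7, 0.86 for Ifit2, 0.84 for Oasl2, 0.80 for Isg15, 0.62 for Ifit3, 0.58 for Usp18, 0.47 for Rsad2 and 0.05 for Bst2. Without the cells that had at least 6 of the genes, r was 0.92 for Ifit1, 0.86 for Oasl2 and 0.76 for Isg15, and lower for Irf7 (0.63) and Ifit2 (0.67). Among 12550 other genes, the mean of the 9 was most alike to 1600014C10Rik (r = 0.92), Ndst1 (0.90), Rtp4 (0.89), Ltbr (0.89), Selenoo (0.88), Mmgt2 (0.87), Sppl2a (0.87), Man1c1 (0.87), Mia3 (0.87) and Zmiz1 (0.86), of which Rtp4 is an interferon-stimulated gene by the list used here.

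Upstream of the 9 genes, the ligands were hardly read. Of 18 listed type I interferon genes 5 had a row under their symbol in the count table, and none reached the 5 CPM mean. Ifnz had the most reads in a population, 25 at d8, and Ifna16 had 11 there. The 3 listed symbols of interferon gamma and lambda genes had no row in the count table.

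Of 6 receptor genes, 5 reached 5 CPM, and within d16 4 of these 5 were lower in Dppa5a-high than in Dppa5a-low cells: Il10rb (-1.67), which serves interferon lambda and interleukin 10, Ifngr1 (-1.37), Ifngr2 (-1.35) and Ifnar2 (-1.05). Ifnar1 was at 33.4 and 49.9 CPM, a ratio of -0.56. Of all genes, 14.5% were lower and 10.2% higher in Dppa5a-high than in Dppa5a-low cells. No receptor was past 2-fold in the other comparisons except Il10rb, higher at d8 than in primed cells (1.00), as were 2.9% of all genes. The signal transducers Jak1, Jak2, Tyk2, Stat2 and Irf9 were all within 2-fold in all 7 comparisons. Irf9 was at 15.3 CPM in Dppa5a-high and 18.4 in Dppa5a-low cells. Among 8 sensing genes with enough reads, the adaptor Ticam1 (-1.13) and the sensor Zbp1 (-1.04) were lower in Dppa5a-high cells, beside the same 14.5% of all genes. No sensing gene was past 2-fold elsewhere.

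Other interferon-stimulated genes did not move as one. Of 75 listed, 36 reached 5 CPM, and in Dppa5a-high against Dppa5a-low cells 4 were higher and 9 lower, with a median of -0.50. Of all genes, 10.2% were higher and 14.5% lower there. The lower ones were led by Igtp (-1.64), Rtp4 (-1.49) and Lgals3bp (-1.27). The higher ones were Phf11d, at 107 against 8.27 CPM (3.54, interval 3.38 to 3.71), the ubiquitin ligase gene Trim25, at 33.8 against 5.91 CPM (2.33, 2.13 to 2.54), Slfn5 (1.32) and Oas1a (1.13). Phf11d and Trim25 were also lower in primed than in naive cells (-2.64 and -2.36) and close to naive cells in d16+10p (0.22 and 0.24).

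Oas1a and Oas1g make the signal that activates RNase L. Oas1a was at 25.1 CPM in naive, 1.58 in primed, 6.16 in Dppa5a-high d16 and 14.8 in d16+10p cells, and Oas1g at 22.4, 1.65, 5.49 and 18.0 CPM. Both were thus past 2-fold lower in primed cells (-3.34 and -3.14) and past 2-fold higher in d16+10p than in Dppa5a-high cells (1.14 and 1.55). Of the 50-base windows of Oas1a transcripts, 57.6% also occur in Oas1g, so that the pair may share reads. Gbp2 (1.26) and Herc6 (1.17), an Isg15 ligase gene in mouse, were higher in primed than in naive cells. At d8 Ifi204 (1.45), Ifi207 (1.36) and Lgals3bp (1.12) were higher than in primed cells.

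Of the enzymes that attach Isg15, Ube2l6 ran opposite to Isg15 within d16, while Uba7 and Herc6 were lower in Dppa5a-high cells, as Isg15 was. Ube2l6, the conjugating enzyme of the pathway, was at 62.8 CPM in naive, 35.4 in primed, 25.9 at d8 and 125 in d16+10p cells, and within d16 at 244 in Dppa5a-high and 25.8 in Dppa5a-low cells, a ratio of 3.19 (3.09 to 3.29). Uba7, the activating enzyme, was under 5 CPM on average and was looked at after its values were seen: it was at 0.67 CPM in Dppa5a-high and 6.85 in Dppa5a-low cells. Herc6, the ligase, was at 6.02 and 8.70 CPM, and Isg15 at 4.09 and 9.59 CPM in the same cells. Among 8 inhibitors of the pathway, Trim28 (1.48) and Ptpn6 (1.38) were higher in Dppa5a-high than in Dppa5a-low cells, beside 10.2% of all genes. Socs3 was lower in d16+10p than in Dppa5a-high cells (-1.27), at 14.0 against 35.1 CPM, beside 0.972% of all genes.

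**Figure D5:**
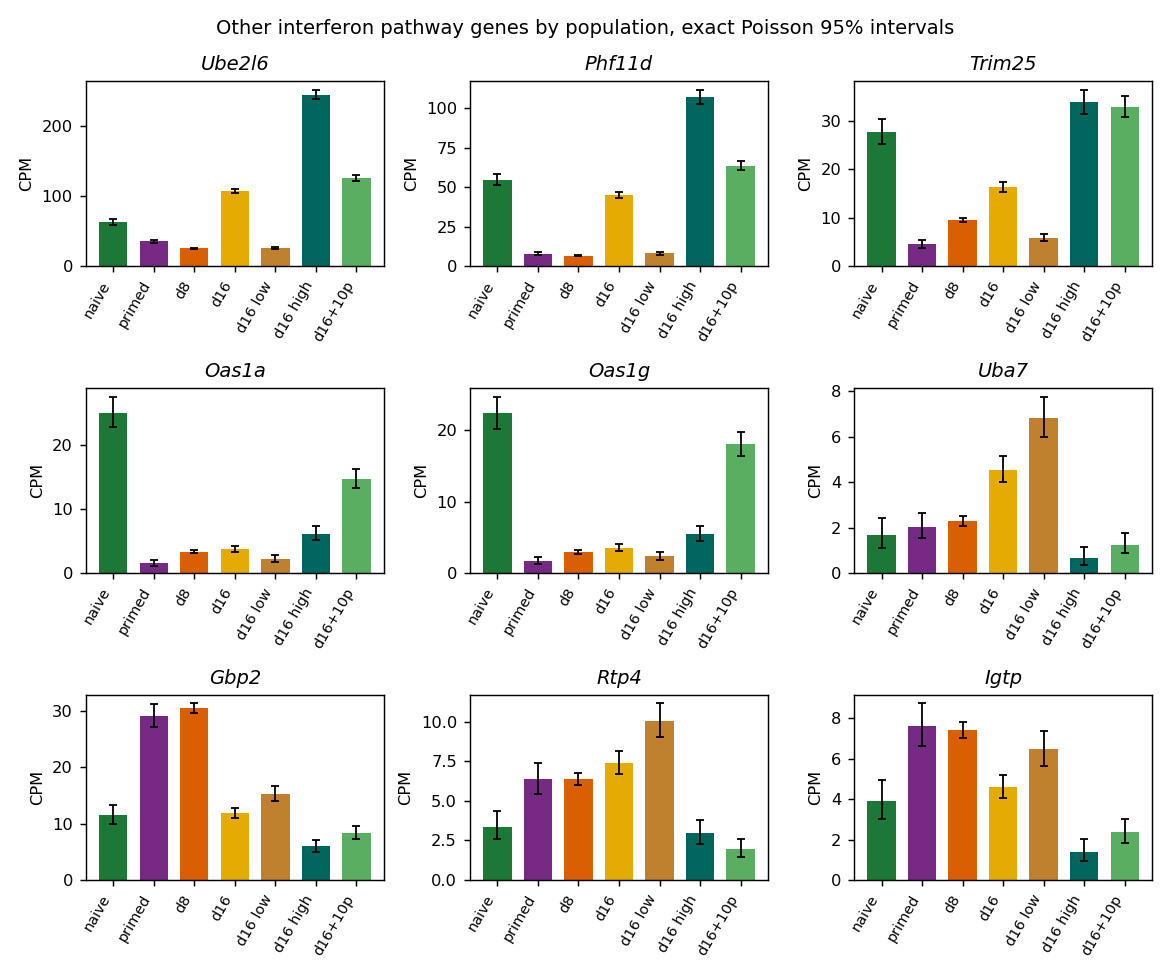
Summed level (CPM, from 0) of 9 other genes of the interferon pathway by population, with exact Poisson 95% intervals. Ube2l6, Phf11d and Trim25 are higher in naive, d16 high and d16+10p cells than in primed, d8 and d16 low cells, with Ube2l6 at 244 in d16 high cells, while Uba7 and Rtp4 are highest in d16 low cells.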

How the data were processed

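Single-cell RNA-seq was measured on BD Rhapsody in 5 tagged populations pooled in 1 cDNA library. The authors deposited counts without normalization, 1 whole number of reads for each gene and cell. Per the submitters' processing notes and the study's methods, reads were trimmed with cutadapt 2.10, mapped with Bowtie2 2.3.4.1 to transcript sequences of GRCm38.p6 and counted by symbol, after which weak barcodes and tag doublets were removed. Molecular identifiers were not described, so intervals and limits from 0 counts (3 counts) cover counting error only.

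The table held 17720 cells and 33963 genes, and no cell was removed. A cell's population is the tag in its column name. Clusters were made with Seurat 5.3.0 in R 4.3.3 (2000 variable genes without the interferon lists, 56 components, 50 neighbours, resolution 0.8), which gave 18, and named from marker lists. Sums, exact intervals and thinning used Python 3.11.15 with numpy 2.4.6 and scipy 1.17.1. With 1 sample per population no test was made. Genes with a mean under 5 CPM were left out of the shares over all genes, not of the 9. Ratio intervals were tried on simulated Poisson sums. These follow the counting model of the intervals, so the trial could not show how intervals behave when few cells hold many reads. Thinned reads were compared with their expected number on the real counts.

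The genes, the lists and the comparisons were chosen with earlier results of these data known. Beside the 9, the text names from each list up to 3 genes per direction and comparison past 2-fold with a mean of at least 5 CPM, the 10 genes most alike over clusters, and marker genes of named clusters. Ifnar1, Ifnar2, Irf9, Uba7, Ifit3b, the interferon ligands and the genes given for cluster 10 were added after their values were seen. Alternatives were other pseudocounts, TMM scaling (edgeR 4.0.16), a total without mitochondrial genes, means of CPM per cell, other cell filters, splits, thinning depths and clusterings, and other level filters.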

Additional observations from a re-analysis of the deposited data

How the results depend on the processing

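All 176 alternative values of ratios that were past 2-fold kept their sign. Those among them from another pseudocount could not have changed it. The counts of genes past 2-fold depend on the pseudocount, since levels of a few CPM stand near it. With a pseudocount of 10 CPM, every count of genes past 2-fold was 0. With 0.1 CPM, chosen after seeing the data, d8 against primed had 3 higher and d16 against d8 had 2 lower. With TMM scaling, primed against naive had 1 higher (Oasl2 at 0.99) and d8 against primed 2. TMM moved ratios of d16+10p against Dppa5a-high cells by 0.12 and the others by less than 0.1. With 2000 to 8000 genes per cell these counts were 1 and 2. Without macrophage-like cells, d8 against primed had 0 higher and d16 against d8 had 0 lower. Without the top 1% of cells, these counts were 0 and 2, and Dppa5a-high against Dppa5a-low cells had 3 lower. With the mean of CPM per cell the last was 5 and d16 against d8 had 2 lower. In Pou5f1-high clusters, Dppa5a-high against primed had 2 lower. The other 111 alternative counts stayed within 1.5 times.

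The share of cells with at least 2 of the genes followed the depth. From naive, primed, d8, d16, Dppa5a-high and Dppa5a-low to d16+10p it was 5.16%, 8.33%, 10.9%, 5.62%, 1.91%, 8.39% and 1.54% at 10000 reads, and 12.4%, 11.3%, 19.5%, 7.60%, 5.48%, 8.50% and 9.04% without thinning. At 3000 reads it was 1.42% in primed, 2.11% in d8, 1.39% in d16, 0.156% in Dppa5a-high and 1.91% in Dppa5a-low cells. For at least 3 genes it was 0.409%, 0.643%, 0.834%, 0.674%, 0%, 1.01% and 0.0924% in the first order. At a resolution of 0.4 the highest Usp18 level in a cluster was 8.50 CPM, and the other 17 highest levels under other clusterings stayed in their intervals. No paired analysis was possible because each population was 1 sample, and for the same reason no replicate could be left out.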

Other observations

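The primed tag held 237 cells of the fibroblast-like cluster 6, in which Ifit2 was at 23.6 CPM, and the 736 d16 cells of that cluster were at 16.0 CPM. In the epithelial-like cluster 1, Rsad2 was at 18.7 CPM in 148 primed-tagged cells and at 24.2 in 1978 d8 cells. Cxcl10, which encodes a chemokine induced by interferon, was at 51.9 CPM in that cluster and at 54.2 CPM in the unnamed cluster 14, where Igtp, an interferon-induced GTPase gene, was at 52.9 CPM and Isg15 at 5.49 CPM. These genes were chosen after their values were seen.

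The 65 Dppa5a-low d16 cells that fell in Pou5f1-high clusters had 15 Isg15 reads (16.2 CPM, 9.07 to 26.7) and 14 Ifit1 reads (15.1 CPM, 8.27 to 25.4), against 3.96 CPM of Isg15 and 1.57 of Ifit1 in the 1211 Dppa5a-high cells of those clusters. They had 0 reads of Rsad2 and of Usp18, and Ifit2 was at 2.16 CPM, where the Dppa5a-high cells had 2.08, 1.37 and 2.69 CPM. These are 1 sample, and the difference was not tested.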
